A study of Sus scrofa with 14 samples.

Results

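The solute carriers described here are the 64 genes, of 2389 named genes on the array, whose pig symbol begins with SLC and a digit. A probe was named through its RefSeq accession, and 137 probes belonged to these 64 genes. Each gene was read from its brightest probe by mean signal across the arrays, and the choice of members used no comparison between groups. The members covered 9 classes set by substrate: 12 carriers of metals, 10 of amino acids, peptides and neurotransmitters, 10 of inorganic ions, 9 of organic acids, bile acids and organic cations, 6 of sugars and polyols, 6 mitochondrial carriers, 5 of vitamins, choline and fatty acids, 4 of nucleosides and nucleotide sugars, and 2 scaffold proteins that carry an SLC symbol. Many well-known cartilage transporters carried no name through a RefSeq accession: of 27 transporters listed whatever their result, 8 were named, and the others, such as SLC2A1, SLC26A2 and SLC40A1, were not analysed here.

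Total RNA of the meniscus, the fibrocartilage pad between the bones of the knee, came from 14 male Wuzhishan pigs whose age is labelled 6 to 7 months. The sham group was 7 animals whose tissue was taken 24 weeks after a sham operation. The osteoarthritis (OA) group was 7 animals that had anterior cruciate ligament surgery, examined at 24 weeks as well. The comparison asks which transcripts differ between meniscus of operated and of sham knees, 1 array was hybridised per animal with a single colour, and no group carried any other labelled treatment.

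Solute carriers are membrane proteins that move a substrate down its gradient or couple it to the gradient of an ion. They supply cells with sugars, amino acids, vitamins and metals, remove lactate and protons, and exchange metabolites between mitochondria, vesicles and the cytosol. Cartilage and the inner meniscus lack blood vessels, so their cells depend on carriers for nutrients that reach them by diffusion, and phagocytes that enter a joint bring carriers of their own. Carriers of drugs, bile acids and filtered solutes are best known from kidney, liver and intestine.

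The arrays themselves differed in brightness between the groups. The 75th percentile of the raw signal ran from 418 to 622 on the sham arrays and from 156 to 492 on the OA arrays. The 14 arrays lay on 5 slides and none held both groups, so slide and group cannot be told apart. Slides 1 and 2 held the sham arrays, slide 3 held OA 1, slide 4 held OA 2 to 5, which were among the dimmest with OA 1, and slide 5 held OA 6 and 7 at 404 and 492. Chondrocyte and fibrocartilage genes marked the tissue: ACAN, DCN, HAPLN1 and SOX9 were well above background on all 14 arrays, and none of these 4 passed the threshold between groups. Of markers of other cells, 0 of 5 T cell and 0 of 2 named endothelial genes passed. KLF1 of 2 named erythrocyte genes and EPCAM of 3 named epithelial genes were called higher in OA, beside 2.97% of tested named genes. TMPRSS15, the 1 gene of the kidney or intestine list matched by symbol, was also called higher. SLC15A1, listed there under its other name PEPT1, was not matched. It changed by 0.45 on the log2 scale and did not pass (limma adjusted p = 0.250).

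Most solute carriers gave a signal that the scanner software called well above background. At least 7 arrays passed for 61 of 64 members (95.3%), beside 94.5% of all named genes, and all 14 arrays passed for 48 members (75%), beside 78.3%. The count differed between the groups. On each sham array 61 to 64 members passed, with a median of 62, and on each OA array 52 to 63 passed, with a median of 56. OA 2, 3 and 4 had 52 each and OA 5 had 56, all on slide 4, whereas OA 6 and 7 had 61 and 63, within or next to the sham range. All 7 sham arrays passed for 60 members and all 7 OA arrays for 48. For dim members the OA values given below therefore lie partly near the background of the dim arrays.

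**Figure D1:**
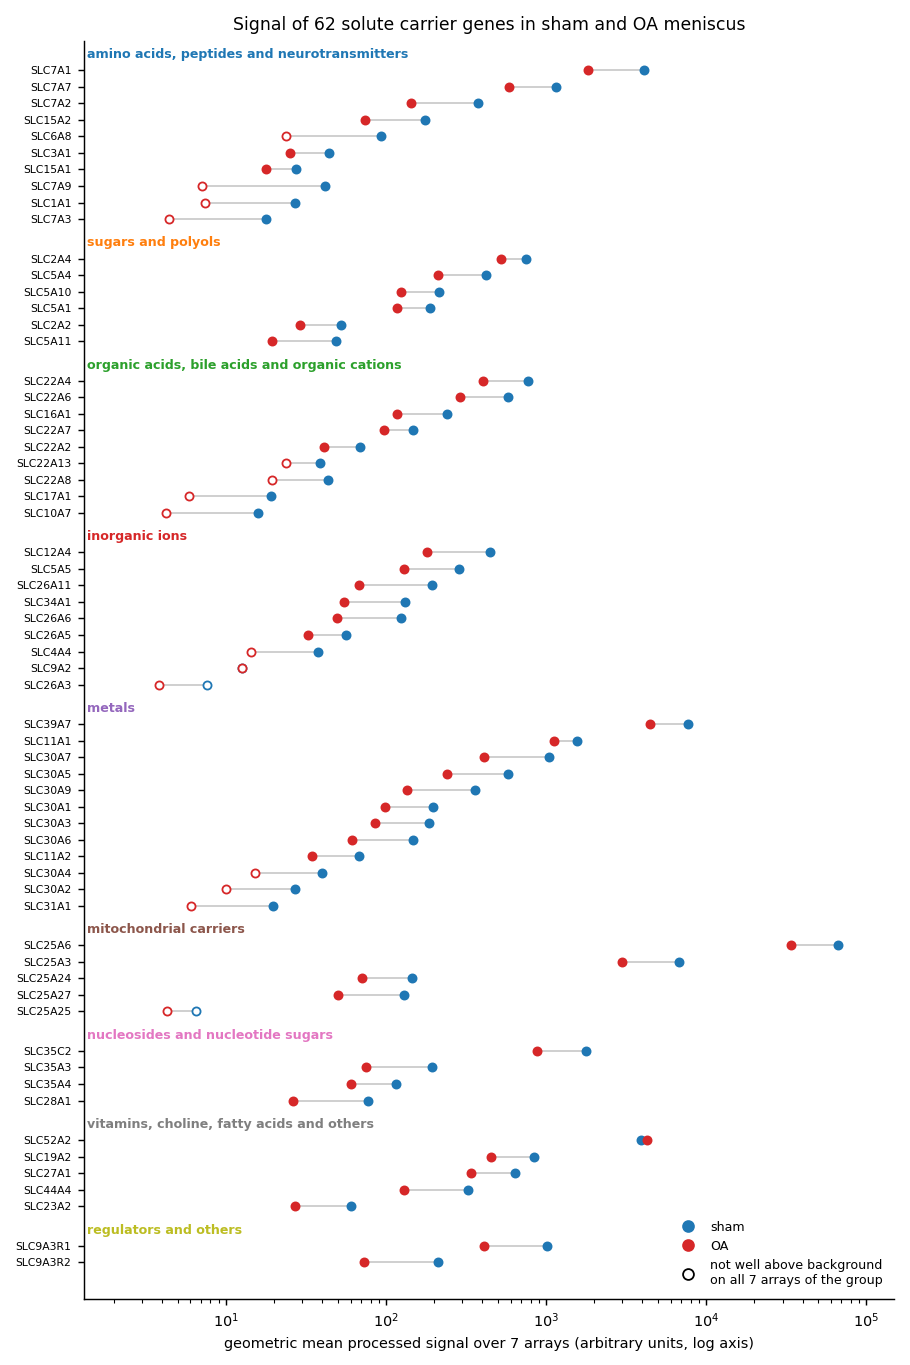
Geometric mean of the processed signal (arbitrary units, log axis) of the brightest probe of each of 62 solute carrier genes over 7 sham arrays (blue) and 7 OA arrays (red), by substrate class; open circles mark a group in which the probe was not well above background on all 7 arrays. These signals are not scaled between arrays, so the OA points lie to the left for nearly all genes, and 47 genes have filled circles in OA against 59 in sham.

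Signals of different probes depend on the probe, so the following levels describe each class and rank no gene. The geometric mean signal over 14 arrays had a median of 114 over the 64 members and 169 over all named genes. Mitochondrial carriers ran from 5.25 to 47502, the upper end belonging to SLC25A6, the ADP and ATP exchanger of the inner mitochondrial membrane. Carriers of metals ran from 10.9 to 5867, with SLC39A7, a zinc channel of the endoplasmic reticulum, at the upper end. Carriers of vitamins, choline and fatty acids ran from 40.5 to 4095, and those of amino acids and peptides from 8.88 to 2740, the upper end being SLC7A1, the main arginine and lysine carrier of most cells. Nucleoside and nucleotide sugar carriers ran from 44.96 to 1247 and sugar carriers from 30.8 to 628. Organic acid and cation carriers ran from 8.17 to 558, and inorganic ion carriers reached 284.

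Too dim to be tested were 3 members, of which SLC26A3 and SLC25A25 are described. SLC26A3, an intestinal chloride and bicarbonate exchanger, passed on 5 sham arrays and 1 OA array. SLC25A25, a mitochondrial carrier of ATP-magnesium and phosphate, passed on 3 arrays of each group. For these probes the arrays say only that the signal lay near background, not that the transcript is absent.

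Among the 61 tested members 2 rose in OA and 0 fell at an adjusted p under 0.05 in limma, SLC11A1 and SLC52A2. That is 3.28% of the tested members, beside 2.97% of the tested named genes called higher and 0.266% called lower, so the share of solute carriers called was near that of named genes in general. At an unadjusted p under 0.05 there were 5 members with a positive and 5 with a negative change, together 16.4% of members, beside 15.3% of named genes (9.17% positive and 6.16% negative). By class these were 1 positive and 3 negative amino acid and peptide carriers, 1 positive each among carriers of sugars, inorganic ions, metals and vitamins, and 2 negative organic acid and bile acid carriers. All 5 negative members (SLC7A9, SLC1A1, SLC7A3, SLC17A1 and SLC10A7) were well above background on 7 sham arrays but on 3 or fewer OA arrays. They thus entered the test through the sham group, where they were high. Of the 48 members above background on all 14 arrays, 4 were positive and 0 negative at that p. That filter leaves out members that are low on the dim OA arrays. The share of named genes under the same filter was not counted, so the split is not read as a result about solute carriers. The median change of the tested members was -0.09 on the log2 scale, beside 0.00 over named genes and -0.05 over all tested probes, and 27 members were positive and 34 negative (44.3% positive, beside 50.5% of named genes). These counts and the class counts below include the 13 tested members not well above background on all 14 arrays. Because the tissue was measured in bulk, a lower value cannot be divided between fewer cells of a type and less RNA per cell. The p-values measure the spread between animals as seen on 1 array each.

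**Figure D2:**
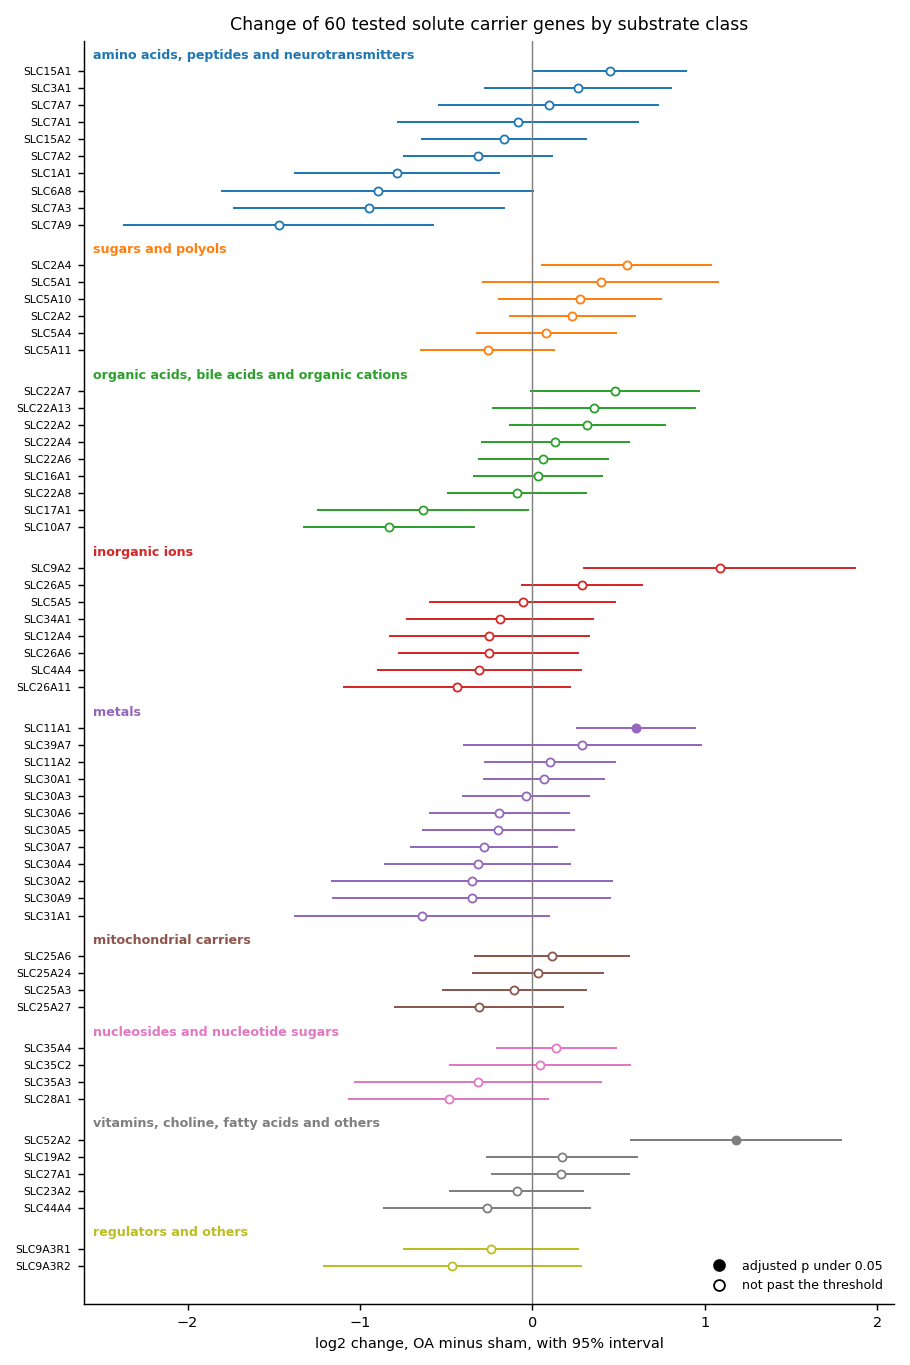
Log2 change of 60 tested solute carriers (OA minus sham, 7 arrays per group) with its 95% interval from the limma fit, by substrate class; filled points passed an adjusted p of 0.05. Filled points are SLC11A1 and SLC52A2, and the intervals of most other members cross 0.

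SLC52A2 encodes a riboflavin transporter, which brings in the vitamin from which the flavin cofactors of mitochondrial enzymes are made. Its values below and those of all members are log2 signals relative to the 75th percentile of the array, so 0 is the level of a probe at that percentile. On the sham arrays the lowest, median and highest values of SLC52A2 were 2.42, 2.84 and 3.37, and on the OA arrays 3.18, 4.14 and 4.95. OA 1 to 5 lay between 3.94 and 4.95, above every sham array, and OA 6 and 7, the arrays of slide 5, lay at 3.20 and 3.18, inside the sham range, so the groups overlap. The difference was 1.18 ± 0.29 (SE, n = 7 per group, 95% interval 0.57 to 1.79; limma adjusted p = 0.0317), a 2.27-fold increase with 7 of 7 OA arrays above the sham mean.

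The increase of SLC52A2 was not evenly shared by the OA slides. Slide means were 2.77 and 3.04 in sham and 4.28, 4.46 and 3.19 on OA slides 3, 4 and 5, so that slides 4 and 5, both OA, differed by more than the groups did. Without slide 4 the difference was 0.66 (limma adjusted p = 0.396), without slides 3 and 4 it was 0.30 (adjusted p = 0.778), and with the brightness of the array as a covariate it was 0.18 (adjusted p = 0.935). With the slide as a random block it was 1.11 (adjusted p = 0.216). The gene's other probes, at lower signals, changed by 0.30 and 0.05, and the mean of all its probes by 0.51 (adjusted p = 0.0705). Leaving out each array in turn kept the call in 7 of 14 fits, with differences of 1.03 to 1.33 and adjusted p-values of 0.0171 to 0.0719: the call was lost without sham 1, 2, 4 or 6 or without OA 2, 3 or 5.

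These refits left few calls among named genes in general. The share of named genes called higher was 0.0443% with the slide as a random block, 0.133% without slide 4, 0.133% without slides 3 and 4, 0.31% when the scan day was a random block, 0.0% with brightness as a covariate and 0.886% with the replicate number as a block, and neither SLC52A2 nor SLC11A1 was among them. Both genes were called after quantile normalization, after median scaling and in the authors' deposited table, beside 3.85%, 3.59% and 3.85% of named genes called higher. With array weights SLC52A2 alone of the members was called higher, beside 3.23%.

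SLC11A1, also called NRAMP1, encodes a carrier that pumps iron and manganese out of the phagosome and is best known from macrophages and neutrophils. Sham arrays gave 1.13, 1.57 and 1.83 as the lowest, median and highest value, and OA arrays 1.83, 2.12 and 2.43. The highest sham array, sham 5 at 1.827, lay just under the lowest OA array, OA 4 at 1.833, so the groups did not overlap; this held for 1.86% of named genes with OA higher. The difference was 0.60 ± 0.16 (SE, n = 7 per group, 95% interval 0.26 to 0.94; limma adjusted p = 0.0482), a 1.52-fold increase with 7 of 7 OA arrays above the sham mean. SLC11A1 was as high on the brighter OA slide as on the dim ones, with slide means of 1.43 and 1.68 in sham and 1.89, 2.16 and 2.23 in OA.

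The size of the SLC11A1 difference stayed between 0.53 and 0.70 in the following refits of its brightest probe, most of which lost the call. Without slide 4 it was 0.58 (limma adjusted p = 0.216), without slides 3 and 4 0.70 (adjusted p = 0.223), with the slide as a random block 0.58 (adjusted p = 0.306), and with brightness as a covariate 0.66 (adjusted p = 0.463). With array weights it was 0.54 (adjusted p = 0.0603). Leaving out each array in turn gave 0.53 to 0.65, with the call kept in 2 of 14 fits, those without OA 1 and without OA 4, and adjusted p-values of 0.0302 to 0.106. Outside that range, normexp background correction gave 0.43 (limma adjusted p = 0.0261), in a fit that called 32.3% of named genes higher. The second probe of SLC11A1 changed by -0.03, with sham arrays from -0.39 to 1.67 and OA arrays from -0.83 to 2.13, and the mean of both probes changed by 0.28 (adjusted p = 0.520).

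Markers of phagocytes are given beside SLC11A1 because it is known from these cells. Of 6 macrophage markers listed, CD14 and CD163 were named, both well above background on all 14 arrays, and 0 of 2 passed the threshold. Their summed level, in multiples of the array's 75th percentile, ran from 6.97 to 45.2 in sham and from 14.6 to 45.1 in OA. CD163 changed by 0.36 ± 0.40 (SE; log2) and CD14 by -0.45 ± 0.24. Of 4 neutrophil markers listed, S100A8, S100A9 and S100A12 were named and 0 of 3 passed. Their summed level ran from 0.216 to 0.402 in sham and from 0.324 to 1.90 in OA, and S100A12 changed by 1.27 ± 0.37 (limma adjusted p = 0.0654). The part of these cells in the SLC11A1 difference was not tested.

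**Figure D3:**
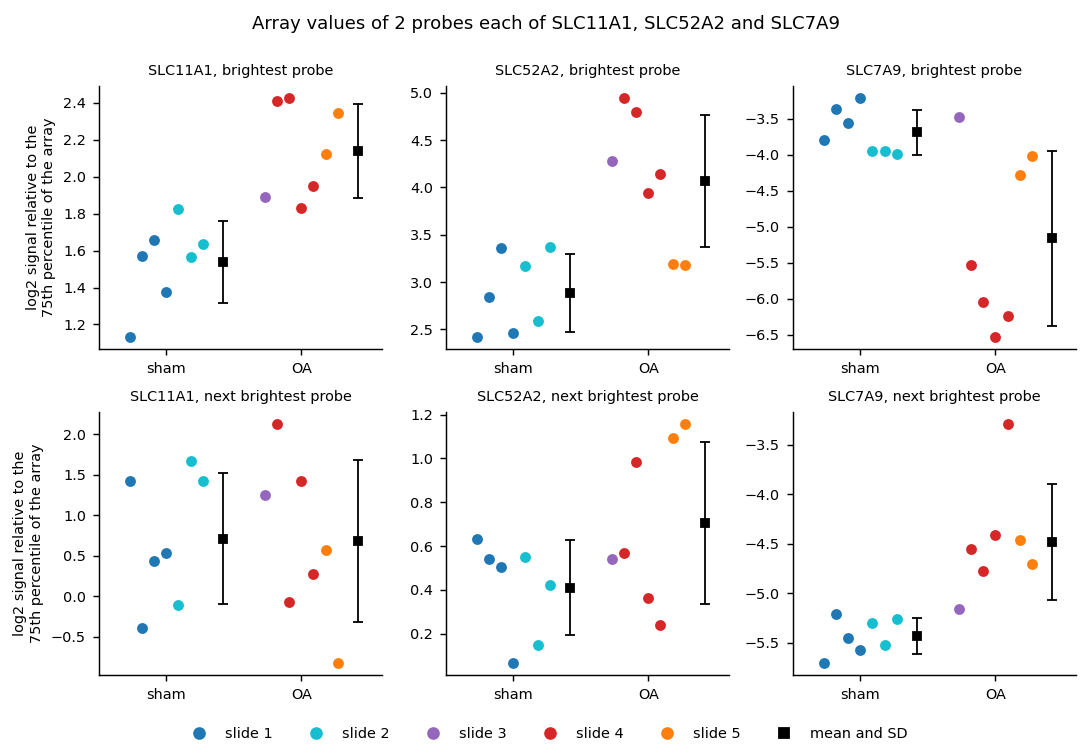
Log2 signal relative to the 75th percentile of the array for the brightest (top) and next brightest (bottom) probe of SLC11A1, SLC52A2 and SLC7A9, 1 point per array coloured by slide, with the mean and SD of each group (n = 7). The brightest probe of SLC52A2 is high on slides 3 and 4 and at 3.18 to 3.20 on slide 5, and that of SLC11A1 is high on all OA slides. The probes of SLC7A9 have changes of opposite sign, and each was well above background on only 3 OA arrays.

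None of the other carriers of metals was called. SLC39A7, which releases zinc from the endoplasmic reticulum, had 2.67, 3.87 and 4.38 as its lowest, median and highest sham value and 2.87, 4.48 and 4.92 in OA, and changed by 0.29 ± 0.32 (SE; log2, limma adjusted p = 0.665). OA 1 to 4 lay above every sham array and OA 5 to 7 within the sham range, and its other tested probes gave changes of -0.74 to 0.06. The zinc exporters of the SLC30 family were represented by 8 members, all tested, of which 1 was positive and 7 negative with a median change of -0.24 and 0 past the threshold. SLC30A1, the zinc exporter of the cell surface, changed by 0.07 ± 0.17 (adjusted p = 0.858), and SLC30A7, which loads zinc into the Golgi, by -0.28 ± 0.20 (adjusted p = 0.463). SLC31A1, the copper importer, had a change of -0.64 ± 0.35 (adjusted p = 0.327), but it passed the background call on 3 of 7 OA arrays. With SLC11A1 and SLC11A2, the intestinal iron importer, the class had 4 positive and 8 negative members.

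Carriers of amino acids and peptides had 3 positive and 7 negative changes among 10 tested members and 0 calls. All 10 passed the background call on all 7 sham arrays but 6 on all 7 OA arrays, so the signs of this class include dim members. SLC7A1 had 1.93, 2.76 and 4.34 as lowest, median and highest sham value and 1.77, 2.84 and 3.45 in OA, a difference of -0.08 ± 0.33 (SE; log2, limma adjusted p = 0.916). Both groups spanned more than a log2 unit, and the 95% interval of the difference ran from -0.78 to 0.61. SLC1A1, a glutamate and cysteine carrier, and SLC7A3, an arginine carrier, both passed the background call on 3 of 7 OA arrays. SLC1A1 changed by -0.78 ± 0.28 (adjusted p = 0.129) and SLC7A3 by -0.95 ± 0.37 (adjusted p = 0.166). The peptide carriers SLC15A1 and SLC15A2, chosen here after their values were seen, changed by 0.45 and -0.17.

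SLC7A9, the light chain that pairs with SLC3A1 to take up cystine in the kidney, came closest to a decrease in that class and gave opposite results on its pair of probes. The brightest probe had -3.99, -3.80 and -3.21 as lowest, median and highest sham value and -6.54, -5.53 and -3.48 in OA, and it passed the background call on 7 sham and 3 OA arrays. The 4 arrays of slide 4 lay at -5.53 or below, while OA 1, 6 and 7 lay at -3.48, -4.28 and -4.02. The difference was -1.47 ± 0.42 (SE, n = 7 per group; limma adjusted p = 0.0642). On OA 2 to 5 the values lay under the lowest level called well above background there (-4.52, -4.49, -4.63 and -5.14), so no size can be read from it. The second probe was also well above background on 7 sham and 3 OA arrays. It ran from -5.70 to -5.21 in sham and from -5.16 to -3.29 in OA without overlap, a difference of 0.95 ± 0.23 (adjusted p = 0.0308) that was past the threshold in the other direction. Its values of -4.56 and -4.78 on OA 2 and 3 lay under the lowest level called well above background there (-4.52 and -4.49). Its value of -4.41 on OA 4 lay near that level (-4.63). Its size is therefore uncertain, and no direction can be read from it on those arrays. It was the only other probe of any member to pass. SLC3A1, the heavy chain of the same carrier, changed by 0.27 ± 0.26 (adjusted p = 0.602). The first probe's value stood at an adjusted p under 0.05 after quantile normalization (-1.36, adjusted p = 0.0405), after median scaling (-1.46, adjusted p = 0.0381), in the authors' deposited table (-1.31, adjusted p = 0.0241) and with array weights (-1.31, adjusted p = 0.0455), and it turned to 0.32 (adjusted p = 0.101) with normexp background correction. In the fits that called it lower, 0.664%, 0.886%, 1.06% and 0.753% of named genes were called lower, in that order. Those fits read the same probe on the same dim OA arrays, so they cannot show a decrease. Normexp adds 50 to every spot, which lifts dim probes more on dim arrays, so its sign shows no direction. The first probe changed by -0.24 without slide 4 (limma adjusted p = 0.786) and by -1.23 with the slide as a random block (adjusted p = 0.350).

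Sugar and polyol carriers, all 6 well above background on all 14 arrays, had 5 positive and 1 negative change, a median change of 0.25 and 0 calls. SLC2A4 encodes GLUT4, the glucose carrier that insulin brings to the surface of muscle and fat cells. Its lowest, median and highest sham values were -0.03, 0.45 and 1.06, and its OA values 0.36, 0.90 and 1.89. The groups overlapped, with 6 of 7 OA arrays above the sham mean, and the difference of 0.55 ± 0.23 (SE; log2) did not pass (limma adjusted p = 0.205); the other probes changed by 0.04 and -0.03. SLC5A1, the sodium-coupled glucose carrier SGLT1, changed by 0.40 ± 0.32 (adjusted p = 0.529), SLC2A2, the glucose carrier of liver and pancreatic islets, by 0.23 ± 0.17 (adjusted p = 0.480), and SLC5A11, an inositol carrier, by -0.26 ± 0.18 (adjusted p = 0.459).

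Markers of fat and muscle are given beside GLUT4, which both tissues make. Of 8 adipocyte markers, all named and 7 tested, LEP was called higher, beside 2.97% of tested named genes. Without passing, FABP4 (0.74), DGAT2 (0.58), PPARG (0.25) and LPL (0.16) had positive log2 changes, and ADIPOQ (-0.18) and CIDEC (-0.34) negative ones. The summed level ran from 5.12 to 20.8 in sham and from 6.36 to 33.9 in OA. Of 8 named muscle markers TNNI1 was called higher, beside the same share. Without passing, MYH7 (0.97), MYH1 (0.39), MYH2 (0.37) and CKM (0.18) were positive, and ACTA1 (-0.38), TNNT3 (-0.44) and MYH4 (-0.07) negative. Their summed level was 10.8 to 38.9 in sham and 8.15 to 21.1 in OA. Of the defining markers of fat, ADIPOQ was well above background on all 14 arrays and PLIN1 on 0 sham and 2 OA arrays. The part of these tissues in the values of SLC2A4 was not tested.

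Organic acid, bile acid and organic cation carriers had 6 positive and 3 negative changes among 9 tested members and 0 calls. SLC16A1, the lactate and pyruvate carrier MCT1, had -1.44, -1.20 and -0.69 as lowest, median and highest sham value and -1.31, -1.20 and -0.51 in OA. These groups overlap almost fully, with a difference of 0.03 ± 0.18 (SE; log2, 95% interval -0.34 to 0.41, limma adjusted p = 0.940), though its other probes gave changes down to -0.88. The SLC22 family of organic anion and cation carriers had 6 members, 5 positive and 1 negative, with a median change of 0.23. In it SLC22A7 changed by 0.48 ± 0.23 (adjusted p = 0.261) and SLC22A4, a carrier of the antioxidant ergothioneine, by 0.13 ± 0.20 (adjusted p = 0.756).

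SLC10A7, of the bile acid carrier family, had -5.63, -5.00 and -4.83 as lowest, median and highest sham value and -6.81, -5.56 and -5.43 in OA. It passed the background call on 7 sham arrays and 1 OA array, so the OA side of the difference of -0.83 ± 0.23 (SE; log2, limma adjusted p = 0.0582) is mostly background and no size can be read from it. It passed the threshold with median scaling (limma adjusted p = 0.0346), with no filter (adjusted p = 0.0478, beside 0.354% of named genes called lower), with array weights (adjusted p = 0.0420) and in the authors' deposited table (adjusted p = 0.0467). These fits read the same probe on the same dim OA arrays, so they cannot show a decrease. The second probe of SLC10A7 changed by 0.30, and normexp background correction gave 0.70 (limma adjusted p = 0.00296), the opposite sign. Normexp adds 50 to every spot, which lifts dim probes more on dim arrays, so that sign shows no direction. SLC17A1, a renal carrier of urate and phosphate, passed on 2 OA arrays and changed by -0.63 ± 0.29 (adjusted p = 0.236).

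Inorganic ion carriers had 2 positive and 6 negative changes among 8 tested members and 0 calls. SLC9A2, a sodium and proton exchanger of epithelia, had -6.82, -5.43 and -4.08 as lowest, median and highest sham value and -4.85, -4.12 and -3.88 in OA, with the background call passed on 6 arrays of each group. Its difference of 1.09 ± 0.37 (SE; log2, limma adjusted p = 0.115) went with a low level on the sham arrays of slide 1: slide means were -6.14 and -4.43 in sham and -4.12, -4.40 and -4.27 in OA, so the sham slides differed by 1.71. Its second probe changed by 0.09. SLC26A5, known as prestin of the outer hair cells, changed by 0.29 ± 0.16 (adjusted p = 0.350) and SLC26A11, a sulphate carrier, by -0.44 ± 0.31 (adjusted p = 0.465). SLC4A4, the sodium and bicarbonate cotransporter, changed by -0.31 ± 0.28 (adjusted p = 0.576), and SLC12A4, the potassium and chloride cotransporter KCC1, by -0.25 ± 0.27 (adjusted p = 0.651).

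Mitochondrial carriers had 2 positive and 3 negative changes among 5 tested members and 0 calls. SLC25A6 had 6.05, 7.00 and 7.32 as lowest, median and highest sham value and 6.602, 7.13 and 7.35 in OA, a difference of 0.11 ± 0.21 (SE; log2, limma adjusted p = 0.807) between overlapping groups. Its 6 probes fell into a bright set with signals of 33074 to 47502 and changes of 0.06 to 0.25, and a dimmer set with signals of 1082 to 3397 and changes of -0.78 to -0.48, none past the threshold. This gene has near-identical copies among the ADP and ATP carriers, and how far each probe detects them was not tested. SLC25A3, the phosphate carrier, was picked after its values were seen because it had the most probes: all 10 were negative, from -0.46 to -0.05, and none passed (smallest adjusted p = 0.188). Those probes read the same RNA samples and are not replicates of each other. SLC25A27, an uncoupling protein of neurons, changed by -0.31 ± 0.23 (adjusted p = 0.485).

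Carriers of nucleosides and nucleotide sugars had 2 positive and 2 negative changes and 0 calls. SLC35A3, which brings UDP-N-acetylglucosamine into the Golgi for glycan and keratan sulphate synthesis, had -1.89, -1.63 and -0.43 as lowest, median and highest sham value and -3.15, -1.86 and -0.43 in OA. The OA arrays spread more widely around nearly the same upper value, and the difference was -0.31 ± 0.34 (SE; log2, limma adjusted p = 0.645). SLC28A1, a pyrimidine nucleoside carrier, changed by -0.49 ± 0.27 (adjusted p = 0.345), SLC35A4 by 0.14 ± 0.16 (adjusted p = 0.681) and SLC35C2, a Golgi protein linked to fucosylation, by 0.04 ± 0.25 (adjusted p = 0.944).

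Beside SLC52A2, the vitamin, choline and fatty acid class held SLC27A1, a fatty acid carrier of fat and muscle, which changed by 0.16 ± 0.19 (SE; log2, limma adjusted p = 0.670) with 6 of 7 OA arrays above the sham mean, and SLC44A4, a choline transporter-like protein, at -0.26 ± 0.28 (adjusted p = 0.644). Carriers of other vitamins in the class, named after their values were seen, were SLC19A2 for thiamine at 0.17 ± 0.21 and SLC23A2 for ascorbate at -0.09 ± 0.18. The riboflavin carrier was thus the 1 member of 5 in this class that passed. Both scaffold proteins that anchor ion exchangers were negative without passing, SLC9A3R1 by -0.24 ± 0.24 (adjusted p = 0.620) and SLC9A3R2 by -0.47 ± 0.35 (adjusted p = 0.495).

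Among the 48 members well above background on all 14 arrays 25 were positive and 23 negative, with a median change of 0.03 (0.04 over named genes of that kind). The other 13 tested members missed at least 1 array, and 12 of them passed on all 7 sham arrays and missed OA arrays only. Those 12 were above background more often in sham than in OA, so the signs of the 13 are not tallied apart here. The counts over all tested members and by class given above do include them. Refits moved these dim members in different ways. With array brightness as a covariate SLC17A1 and SLC7A3 turned positive, at 0.46 and 0.25, while SLC10A7, SLC7A9, SLC1A1 and SLC31A1 stayed negative at -0.47, -0.28, -0.28 and -0.08. Without slides 3 and 4 SLC17A1 and SLC31A1 turned positive, at 0.36 and 0.03, while SLC10A7, SLC7A9, SLC1A1 and SLC7A3 stayed negative at -0.66, -0.46, -0.51 and -0.04. With normexp background correction all 6 of these were positive, 23 members were called higher and 0 lower, beside 32.3% of named genes called higher and 2.26% called lower, and the median over the 61 tested members was 0.22. That correction adds 50 to every spot before scaling, which lifts a probe near background more on a dim array. Its signs and calls for dim members therefore cannot show a direction.

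**Figure D4:**
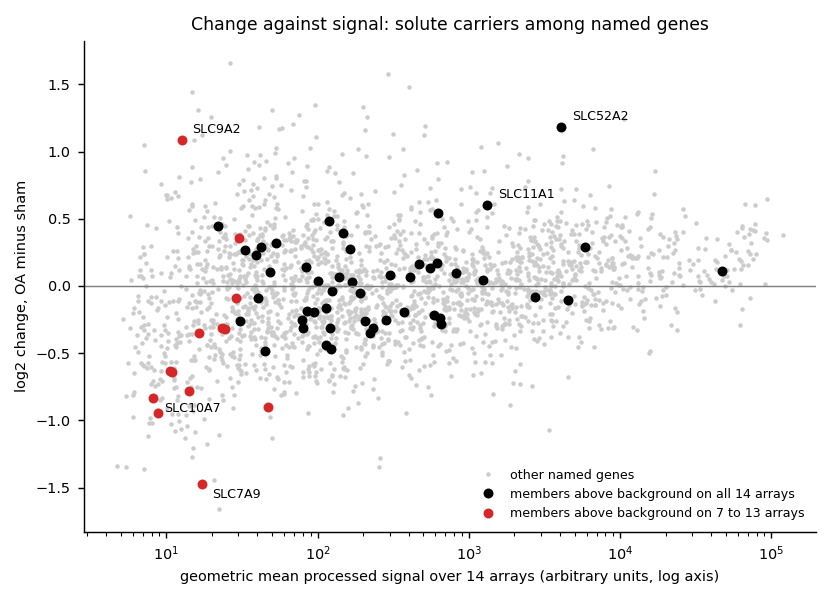
Log2 change (OA minus sham) against geometric mean signal over 14 arrays (arbitrary units, log axis) for the 61 tested solute carriers, black where well above background on all 14 arrays and red where on 7 to 13, over the other tested named genes in grey. The 13 red points lie at signals of 8.17 to 46.9 and the 48 black points at 22.1 to 47502.

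Differences between slides of 1 group are given beside those between the groups. They rest on fewer arrays, 4 and 3 on sham slides 1 and 2 and 4 and 2 on OA slides 4 and 5. The groups had 7 arrays each. Sampling alone therefore spreads the slide differences more widely, so the sizes are not directly comparable. Over the 61 tested members the median size of the OA minus sham change was 0.27, that of the difference between the sham slides 1 and 2 was 0.37, and that between OA slides 4 and 5 was 0.37. The sham slides differed by more than the groups in 33 members (54.1%, beside 58.1% of named genes), and slides 4 and 5 in 42 members (68.9%, beside 63.8%). SLC11A1 was not among either set, its slide differences being 0.24 in sham and 0.08 in OA against a group difference of 0.60. For SLC52A2 the values were 0.27 in sham and -1.27 in OA. The 95% intervals had a median width of 0.98, and 44 of 61 lay wholly between -1 and 1.

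Different probes of a member often disagreed. Of 36 members with more than 1 tested probe, 19 had probes that shared a sign and 17 did not, and among the 66 probes that were not the brightest 44 followed its sign and 22 went against it. SLC52A2 had 3 positive probes of which 1 passed, and SLC11A1 had 1 of each sign.

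**Figure D5:**
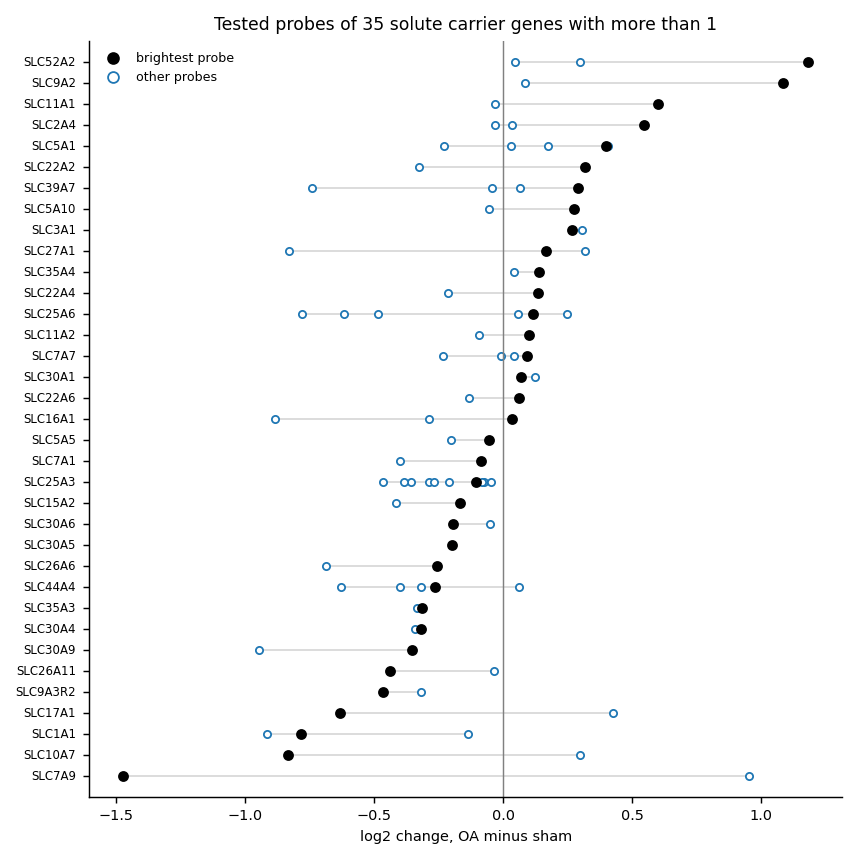
Log2 change (OA minus sham) of every tested probe of 35 solute carriers with more than 1, with the brightest probe filled and the others open, ordered by the brightest. Lines span from the lowest to the highest probe of a gene, and in 17 genes they cross 0.

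Other transport genes were read from a list of 29 named genes, 25 of them tested, and limma called 0 in either direction, with 3 positive and 1 negative at an unadjusted p under 0.05, beside 15.3% of named genes in either direction. The smallest p-values in each family were as follows. SLCO2A1, the prostaglandin carrier, ran from -2.03 to -1.01 in sham and from -1.28 to -0.43 in OA and changed by 0.69 ± 0.20 (SE; log2, limma adjusted p = 0.0651). The proton pump of acidic vesicles had 5 of 5 tested genes positive, beside 50.5% of named genes, with a median change of 0.37, among them ATP6V1G1 at 0.54 ± 0.20 (adjusted p = 0.139) and ATP6V1A at 0.40 ± 0.20 (adjusted p = 0.283). The 5 include ATP6V1G2, a dim probe well above background on 7 sham but 3 OA arrays. Of the ion pumps ATP4B changed by 0.58 ± 0.19 (adjusted p = 0.0927) and ATP1B4 by 0.33 ± 0.27 (adjusted p = 0.534). Of the aquaporins AQP2 changed by 0.31 ± 0.15 (adjusted p = 0.277) and AQP3 by -1.28 ± 0.79 (adjusted p = 0.391). ABCF1 changed by -0.50 ± 0.23 (adjusted p = 0.238), ABCG2, an efflux pump, by 0.17 ± 0.24 (adjusted p = 0.730), and the chloride channel CLCN5 by -0.41 ± 0.26 (adjusted p = 0.398). CLCN5 was well above background on 7 sham but 3 OA arrays, so its OA values lie partly near background.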

How the data were processed

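The deposited scanner files hold, per the file headers, Agilent Feature Extraction 11.0.1.1 spot intensity values with the background subtracted, not normalized between arrays. The deposited series table holds log2 values, judged from their range and their match to the scanner signal; the sources used here do not give how the authors made it, and it was used only as an alternative.

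From each log2 processed signal the 75th percentile of the array's non-control probes was subtracted, and 82 non-uniform or outlying spots were left out. The 38818 probes called well above background on 7 or more of the 14 arrays entered a two-sided test in limma 3.58.1 (R 4.3.3, lmFit, then eBayes). P-values were adjusted by Benjamini-Hochberg across them, with a threshold of 0.05. The procedure was tested on simulated data. The simulated arrays had independent noise and no slide, brightness or background effect, so that test could not show how these affect the calls. The number of arrays limits the precision, and brightness and slide limit it further.

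Genes were named by matching RefSeq accessions, without version, to the Sscrofa11.1 gene table (5461 of 5779 probes with such an accession matched). No coordinates are printed, since the sources used here do not give the build of the array design. Members, classes, marker lists and the "without slide" alternatives were chosen with earlier results of these data known. Genes named with values were the members past the threshold, the 3 smallest p and the brightest probe of each class, members below background on every array of a group, a list of 27 transporters where named, and the 2 smallest p of each related family. Results of 2 members that the rule selects are not reported here by name. Members outside that rule were chosen after their values were seen: SLC3A1, SLC11A2, SLC15A1, SLC15A2, SLC19A2, SLC23A2, SLC25A3, SLC25A25 and SLC26A3.

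Alternatives were other scalings, filters, normexp (offset 50; run on the median signal, as the planned mean signal was not used here), array weights, trended and robust variances, the authors' table, replicate, slide or scan-day blocks, brightness as a covariate, arrays or slides left out, and the mean of all probes.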

Additional observations from a re-analysis of the deposited data

Results flagged for a closer look

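Of 72 sets of 7 arrays examined (a named member in 1 group), 5 held an array far from the other 6, and chance gives about 1 in 20. Values are log2 signals relative to the 75th percentile of the array. On sham 4, SLC25A6 lay at 6.05 where the others ran from 6.90 to 7.32, SLC39A7 at 2.67 where they ran from 3.81 to 4.38, and SLC4A4 at -2.59 where they ran from -4.47 to -3.72. On OA 5, SLC16A1 lay at -0.51 and the others from -1.31 to -1.03. On sham 1, SLC10A7 lay at -5.63 and the others from -5.12 to -4.83. These 5 values touch none of the genes called, and 3 of them fall on sham 4.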

How the results depend on the processing

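The 2 increases and 0 decreases stayed at 2 and 0 with a filter on all 14 arrays, with marked spots kept and with trended and robust variances. Increases numbered 23 with normexp, 1 with array weights, and 0 with scan day or slide as a random block, without slide 4, without slides 3 and 4, with brightness as a covariate and with the mean of all probes; leaving out single arrays gave 0 to 2. Decreases numbered 1 after quantile normalization (SLC7A9) or with no filter (SLC10A7), 2 (both genes) with median scaling, the authors' table or array weights, and 0 to 3 when single arrays were left out, the 3 (with SLC1A1) without OA 1. SLC7A9, SLC10A7 and SLC1A1 were well above background on 7 sham arrays but on 3, 1 and 3 OA arrays, so these counts cannot show a decrease. The replicate number as a block gave 0 increases and 0 decreases. Same-numbered arrays correlated at -0.192 to 0.275, 2 of 7 pairs over 0.1, and 0 sham arrays matched their own number best. These values show no pairing by number but cannot exclude one, since same-numbered arrays always lay on different slides. The members' median change moved to 0.22 with normexp. Its offset, added before scaling, lifts dim probes more on dim arrays, so the normexp signs of dim members show no direction. Of 35 named members 13 reversed under no alternative; the causes were not tested. Reversed log2 changes follow. With normexp: SLC10A7 0.70, SLC17A1 0.74, SLC1A1 0.54, SLC25A27 0.18, SLC25A6 -0.091, SLC28A1 0.28, SLC31A1 0.72, SLC35A3 0.020, SLC35C2 -0.084, SLC4A4 0.54, SLC5A11 0.46, SLC7A3 0.65 and SLC7A9 0.32. With brightness: SLC16A1 -0.059, SLC17A1 0.46, SLC22A7 -0.021, SLC25A27 0.061, SLC25A6 -0.35, SLC27A1 -2.79e-05, SLC30A1 -0.035, SLC35C2 -0.30, SLC39A7 -0.96, SLC44A4 0.29, SLC4A4 0.24, SLC5A1 -0.18, SLC5A11 0.048 and SLC7A3 0.25. Without slides 3 and 4: SLC16A1 -0.072, SLC17A1 0.36, SLC25A6 -0.080, SLC30A1 -0.081, SLC31A1 0.027, SLC35C2 -0.23, SLC39A7 -0.63, SLC44A4 0.43, SLC4A4 0.013 and SLC5A1 -0.14. Without slide 4: SLC16A1 -0.095, SLC17A1 0.10, SLC31A1 0.16, SLC35C2 -0.039, SLC39A7 -0.19 and SLC44A4 0.41. With the mean of all probes: SLC16A1 -0.38, SLC22A4 -0.039, SLC25A6 -0.24, SLC27A1 -0.12 and SLC39A7 -0.11. With array weights SLC35C2 was -0.11. Leaving out single arrays, SLC16A1 ran from -0.066 to 0.11, SLC25A6 from -0.036 to 0.19, SLC35C2 from -0.12 to 0.13 and SLC7A1 from -0.25 to 0.15. The dim OA arrays limit members near the background most.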
